A study of Homo sapiens with 6 samples.

Results

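The genes described here encode the transcription factors and close effectors of the ATF4-CHOP branch of the cellular stress response. They are the rows whose symbol is ATF4, ATF3, ATF5, DDIT3, CEBPB, NUPR1, TRIB3, DDIT4, GDF15 or STC2, named from what they encode, and they make up 10 of the 37887 symbols in the count table. All 10 passed the filter on low counts and were among the 18851 genes tested. RNA-seq was done on BT-549, an established human line of triple-negative breast cancer, in 3 control and 3 shIRF1 samples. IRF1 is a transcription factor of the interferon pathways. Control samples are titled with a control shRNA and received 0.1% DMSO as vehicle. Samples titled shIRF1 received 500 ng/ml doxycycline, which switches on a tet-controlled short hairpin RNA against IRF1. The design text speaks instead of BT-549 cells with the IRF1 hairpin in both groups. Doxycycline was in either case given to shIRF1 samples only, so its effects and those of losing IRF1 cannot be told apart. If the titles hold, the groups also differ in the hairpin they carry and in the transduced cells. Effects of that difference could then not be told apart from those of losing IRF1 either. The cells were a culture selected in puromycin after transduction, and the length of doxycycline treatment is not given in the sources used here.

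When cells lack amino acids, misfold proteins in the endoplasmic reticulum, sense double-stranded RNA or have failing mitochondria, kinases phosphorylate the translation factor eIF2 alpha. General protein synthesis then falls while the ATF4 mRNA is translated more efficiently, so that the level of ATF4 mRNA alone does not report ATF4 activity. ATF4 pairs with other leucine zipper proteins, turns on genes of amino acid supply, and induces DDIT3, which encodes CHOP, a factor linked to cell death under prolonged stress. Several targets feed back on the pathway, and others encode secreted proteins used as markers of stress in tumors.

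The transcripts of all 10 genes were less abundant in the shIRF1 samples. ATF5 fell furthest, to 34.4% of the control mean, followed by GDF15 at 42.9%, NUPR1 at 59.5% and DDIT3 at 62.5%. ATF4 itself changed least and was at 90.1% of control. By edgeR's quasi-likelihood test, 10 of 10 genes were lower with an adjusted p under 0.05 and 0 were higher, in DESeq2 as well and also before adjustment. Over all genes tested, 26.4% were called lower and 24.1% higher. The 10 genes and the lists below were chosen with earlier results of these data known. Their counts beside those of all genes are therefore a description and not an independent test. With a fold change over 2 as well, 2 of 10 were lower, against 4.43% of all genes tested. In all 10 genes the highest shIRF1 sample lay under the lowest control sample, which was the case for 29.5% of all genes tested. The median log2 fold change of the 10 genes was −0.47, and that of all genes tested was −0.0024.

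Values are given as TMM-scaled CPM, in which each count is set against its library's total after that total was scaled by TMM. Errors are the SD over the 3 samples of a group, and fold changes carry a standard error (SE) and a 95% confidence interval from the fit. Library totals ran from 55143808 counts in shIRF1 replicate 2 to 160436234 counts in shIRF1 replicate 3, and the 10 genes had between 336 and 90986 counts per library. The targeted gene IRF1 was at 45.3, 48.1 and 51.5 CPM in the control samples and at 13.8, 14.9 and 14.6 CPM in the shIRF1 samples (log2 fold change −1.74 ± 0.06, SE). Of the markers of this mesenchymal line, VIM, CDH2, ZEB1 and FN1 were at 77.7 CPM or more in every library, whereas ESR1, PGR, CDH1 and EPCAM were at 0.802 CPM or less. ERBB2, listed as a low marker, was at 35.0 to 54.8 CPM. The samples are described as triplicate cultures, and how separate these were is not said. The p-values therefore measure the spread between these samples, which may be technical.

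**Figure D1:**
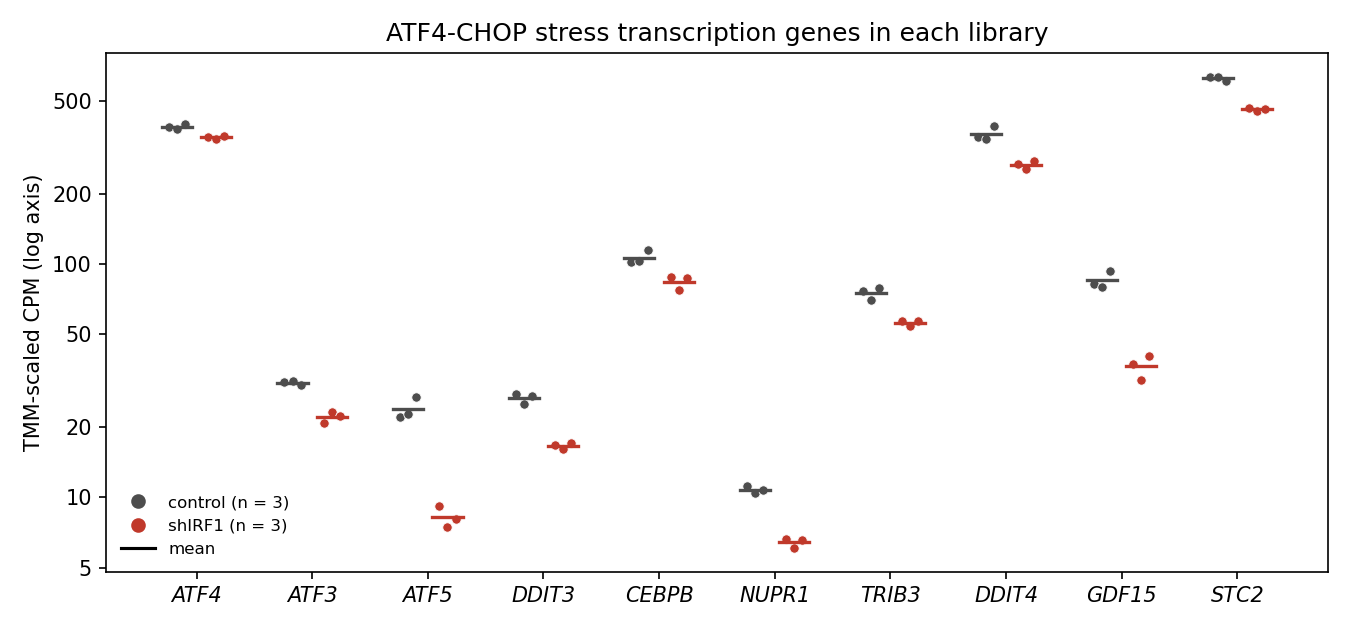
TMM-scaled CPM (log axis) of the 10 genes in each of the 3 control samples (grey) and 3 shIRF1 samples (red), with a bar at each group mean. In every gene the red points lie below the grey points, with the widest gap for ATF5 (23.97 against 8.24 CPM) and the narrowest for ATF4 (386 against 348 CPM).

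Promoter windows were read to see which letters the starts of these genes carry. Windows of 300 bases around annotated starts (250 before, 50 after, RefSeq, GRCh38.p14) were found for 9 of the 10 genes, 17 windows in all. NUPR1 was not among them. The motifs searched on both strands were TGATGNAA, the core of the element bound by C/EBP-ATF pairs, TGACGTCA, the cAMP response element bound by ATF proteins, and GAAANNGAAA, the tandem half-site of the interferon regulatory factors. Of 35116 windows for all genes, 3.62% held the first, 1.85% the second and 3.57% the third. Counted by gene, 3.07% of the 12425 tested genes with a window held the first in at least 1 window, 3.46% the second and 4.01% the third. Of the 9 genes searched, 1 held the first, 0 held the second and 1 held the third.

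The gene with the interferon regulatory factor letters was ATF5, which also had the largest decrease. Its most upstream of 3 windows, chr19:49928656-49928955 on the plus strand, is shown because it carries 3 matches, in capitals. They begin at bases 160, 166 and 258, where base 251 is the start site, and those at 160 and 166 overlap. The other windows of ATF5 held none. ATF3, a gene with a smaller decrease, held the C/EBP-ATF letters at base 60 of the window chr1:212565157-212565456 on the plus strand, again in capitals. A match describes letters and not a bound site, and no match says only that these letters are not in the window. The part of these letters in the decreases was not tested.
ATF5: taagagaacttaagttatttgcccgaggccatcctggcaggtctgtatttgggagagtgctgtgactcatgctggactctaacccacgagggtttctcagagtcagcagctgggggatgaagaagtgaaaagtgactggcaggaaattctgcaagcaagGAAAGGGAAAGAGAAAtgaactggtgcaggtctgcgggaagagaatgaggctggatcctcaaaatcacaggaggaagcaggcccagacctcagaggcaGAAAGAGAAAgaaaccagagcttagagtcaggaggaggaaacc
ATF3: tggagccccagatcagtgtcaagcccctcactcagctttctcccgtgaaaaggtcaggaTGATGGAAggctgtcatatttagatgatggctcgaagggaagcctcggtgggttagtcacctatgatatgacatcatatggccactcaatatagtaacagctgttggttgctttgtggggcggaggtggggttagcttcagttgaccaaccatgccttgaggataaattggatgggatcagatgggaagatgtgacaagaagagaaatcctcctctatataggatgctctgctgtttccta

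Of the transcription factors, ATF4 stands at the head of the branch. It lies at chr22:39519695-39522685 on the plus strand (gene positions are from GENCODE 29 on GRCh38). ATF4 was at 385, 378 and 396 CPM in control samples 1 to 3 and at 350.0, 342 and 352 CPM in shIRF1 samples 1 to 3. The groups did not overlap, although the lowest control exceeded the highest shIRF1 sample by a small margin. The log2 fold change was −0.15 ± 0.04 (SE; 95% confidence interval −0.24 to −0.064), with an adjusted p of 0.00511 in edgeR. It was the smallest change of the 10 genes and the one that moved closest to the threshold, with an adjusted p of 0.0421 when libraries were scaled by their total only. Reads of ATF4 can also be shared with its near-identical pseudogenes. The pseudogenes ATF4P1 to ATF4P4 together held 2.21% to 2.82% as many counts as ATF4 in the 6 libraries.

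ATF5, a relative of ATF4 that is also translated preferentially under stress and acts in the response to mitochondrial stress, lies at chr19:49928702-49933935 on the plus strand. It was at 22.1, 22.9 and 26.9 CPM in control samples and at 9.16, 7.44 and 8.12 CPM in shIRF1 samples. Each shIRF1 value was under every control value by a wide margin. ATF5 fell by 1.53 on the log2 scale (SE 0.09, 95% confidence interval −1.72 to −1.35), or 2.91-fold, with an adjusted p of 1.93e-10 in edgeR. Its interval did not overlap that of ATF4. Set against ATF4 in the same library, there were 5.74, 6.06 and 6.80 ATF5 counts per 100 of ATF4 in control samples and 2.62, 2.17 and 2.31 in shIRF1 samples. Exons of NUP62 and IL4I1 overlap ATF5 on the opposite strand, and the strand setting of the counting is not given in the sources used here. NUP62 had group means of 132 and 129.9 CPM, with an adjusted p of 0.693 in edgeR. IL4I1, an enzyme of amino acid breakdown, was at 1.61 and 0.652 CPM, far below ATF5 in counts, and was lower with an adjusted p of 1.32e-04. Their part in the ATF5 count was not tested.

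DDIT3 encodes CHOP and lies at chr12:57516588-57521737 on the minus strand. It was at 27.7, 25.0 and 27.3 CPM in control samples and at 16.8, 16.1 and 17.2 CPM in shIRF1 samples. The values within each group were close together and the groups were apart. DDIT3 fell by 0.68 on the log2 scale (SE 0.06, 95% confidence interval −0.81 to −0.54), with an adjusted p of 9.93e-08 in edgeR. Per 100 counts of ATF4 there were 6.63 to 7.20 counts of DDIT3 in control samples and 4.69 to 4.88 in shIRF1 samples. DDIT3 shares exonic sequence on the opposite strand with MARS1 and MBD6. MARS1, listed as MARS, was slightly higher in shIRF1 samples (273 to 297 CPM as means). MBD6 was lower (70.3 to 49.1 CPM as means, adjusted p 3.97e-07 in edgeR). Their part in the DDIT3 count was not tested.

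ATF3, a stress-induced repressor and activator that ATF4 and CHOP act upon, lies at chr1:212565334-212620777 on the plus strand. Control samples held 31.2, 31.5 and 30.2 CPM and shIRF1 samples 20.9, 23.1 and 22.2 CPM. It was the 1 gene of the 10 whose lowest value was in shIRF1 replicate 1 and not in replicate 2. ATF3 fell by 0.49 on the log2 scale (SE 0.06, 95% confidence interval −0.61 to −0.36), with an adjusted p of 1.98e-06 in edgeR.

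CEBPB, which encodes the ATF4 partner C/EBP beta and lies at chr20:50190734-50192689 on the plus strand, was at 102, 103 and 114 CPM in control samples. In shIRF1 samples it was at 87.9, 77.1 and 86.9 CPM. After ATF4 this was the smallest change, and the groups were again apart. CEBPB fell by 0.34 on the log2 scale (SE 0.06, 95% confidence interval −0.46 to −0.22), with an adjusted p of 6.66e-05 in edgeR. Its antisense neighbour CEBPB-AS1 overlaps its exons and went the other way, from a mean of 0.773 CPM to 2.22 CPM (log2 fold change 1.51 ± 0.19, SE). With the strand setting unknown, reads from the exonic sequence that CEBPB and CEBPB-AS1 share cannot be told apart. The overlapping genes named beside ATF5, DDIT3 and CEBPB fall outside the rule for named genes and are given for their position.

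NUPR1, a small chromatin-binding protein induced by stress and a cofactor of ATF4-driven transcription, lies at chr16:28532708-28539174 on the minus strand. It was at 11.2, 10.5 and 10.7 CPM in control samples and at 6.65, 6.05 and 6.59 CPM in shIRF1 samples. Its decrease was the third in size. NUPR1 fell by 0.74 on the log2 scale (SE 0.07, 95% confidence interval −0.90 to −0.58), with an adjusted p of 2.33e-07 in edgeR.

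Feedback within the pathway was represented by TRIB3, and DDIT4 is taken beside it as an effector. TRIB3, a pseudokinase that binds ATF4 and CHOP and restrains them, lies at chr20:362835-397559 on the plus strand. It was at 76.9, 70.1 and 79.3 CPM in control samples and at 56.9, 54.1 and 57.2 CPM in shIRF1 samples. DDIT4, also called REDD1, inhibits the growth-promoting kinase complex mTORC1 and lies at chr10:72273920-72276036 on the plus strand. It was at 349, 344 and 390 CPM in control samples and at 267, 254 and 277 CPM in shIRF1 samples. Both genes moved by about the same amount, TRIB3 by −0.43 ± 0.05 and DDIT4 by −0.44 ± 0.05 (log2 fold change ± SE). The 95% confidence intervals were −0.53 to −0.32 for TRIB3 and −0.55 to −0.33 for DDIT4. The adjusted p-values in edgeR were 1.16e-06 for TRIB3 and 1.32e-06 for DDIT4.

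GDF15 and STC2 encode secreted proteins. GDF15 is a TGF-beta family hormone that acts on the brainstem to curb appetite and is released by many stressed cells. It lies at chr19:18374731-18389176 on the plus strand. Control samples held 82.0, 79.7 and 93.6 CPM and shIRF1 samples 37.2, 31.7 and 40.5 CPM. The lowest control sample lay far above the highest shIRF1 sample. GDF15 fell by 1.21 on the log2 scale (SE 0.07, 95% confidence interval −1.37 to −1.06), or 2.33-fold, with an adjusted p of 3.43e-10 in edgeR. Its CV of 12.1% among shIRF1 samples was the highest of the 10 genes, which otherwise ranged down to 1.40%.

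STC2, a glycoprotein hormone induced by ATF4 and, in breast cancer cells, by estrogen, lies at chr5:173314713-173329503 on the minus strand. It was at 634, 634 and 610.2 CPM in control samples and at 464, 452 and 461 CPM in shIRF1 samples. These were the tightest values of the 10 genes in shIRF1 samples. STC2 fell by 0.45 on the log2 scale (SE 0.04, 95% confidence interval −0.53 to −0.36), with an adjusted p of 7.98e-08 in edgeR. In CPM this was the largest difference of the 10, from a mean of 626 ± 13.8 to 459 ± 6.44 (SD, n = 3 each).

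**Figure D2:**
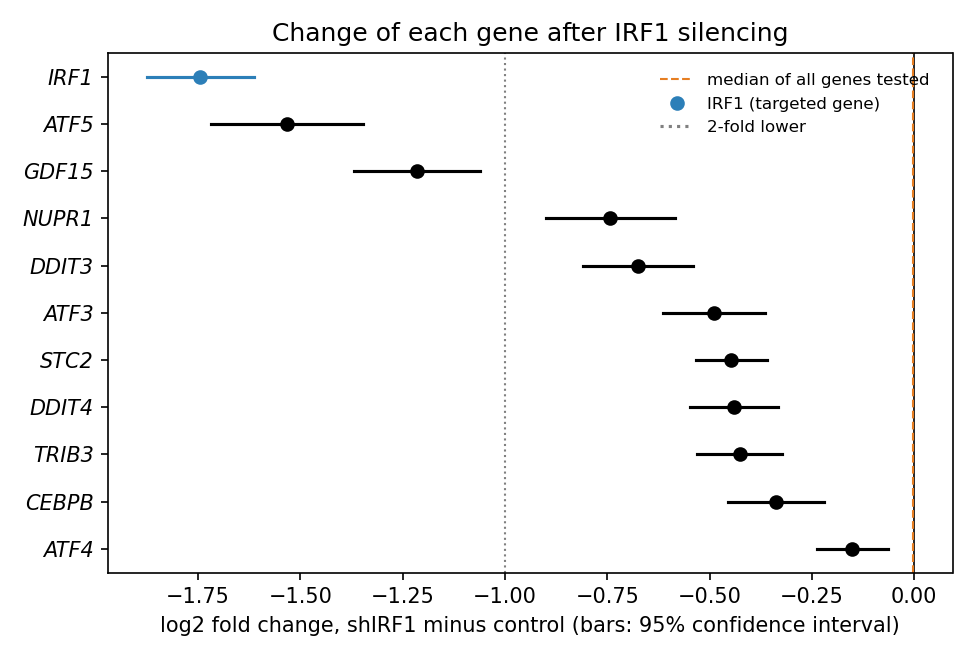
Log2 fold change (shIRF1 minus control) of the 10 genes in black and of IRF1 in blue, with 95% confidence intervals as bars. The dotted line marks a 2-fold decrease and the dashed line the median of all genes tested. The intervals of ATF5 and GDF15 lie wholly beyond the 2-fold line, and that of ATF4 (−0.24 to −0.064) lies nearest to 0.

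Of the 10 genes, 9 had their lowest shIRF1 value in shIRF1 replicate 2, the library with the smallest total, and 6 had their highest control value in control replicate 3. Without shIRF1 replicate 2, the log2 fold changes were −1.47 for ATF5, −1.13 for GDF15, −0.65 for DDIT3 and −0.13 for ATF4, and 10 of 10 genes were still called lower. With every library thinned to the smallest total, 10 of 10 were called lower as well.

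Levels were compared between genes per kilobase of annotated exon (GENCODE 29, all exons of a gene merged). In control samples DDIT4 was at 175 ± 12.0 CPM per kb and ATF4 at 154 ± 3.71 CPM per kb (SD, n = 3). STC2 followed at 102, CEBPB at 54.3 and GDF15 at 40.8 CPM per kb. TRIB3 (21.96 ± 1.38) and DDIT3 (20.4 ± 1.10) were within their spread of each other, as were ATF5 (8.12 ± 0.879) and ATF3 (7.66 ± 0.170). NUPR1 was lowest at 1.90 CPM per kb, over 5674 bases of merged exons, a length that includes long annotated isoforms and may lower the value. Merging can lengthen the other genes in the same way, so the order between genes is approximate. In shIRF1 samples ATF4 (138 ± 2.05 CPM per kb) came above DDIT4 (129 ± 5.61), and ATF5 (2.79 ± 0.293) came below ATF3 (5.47 ± 0.275).

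The genes whose profile over the 6 samples was most like that of ATF5 or GDF15 were sought among the 13066 tested genes that averaged 1 CPM or more. By Pearson's r of log2 CPM, the closest to ATF5 were HIST3H2A (0.9992), HIST1H2BL (0.9990) and PCBD1 (0.9990). The closest to GDF15 were CARD19 (0.9996), PNPLA6 (0.9993) and BAG3 (0.9991). These values describe 6 samples that fall into 2 groups, so any gene that differs between the groups with little spread gives a high r.

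The machinery upstream of ATF4 was taken as 18 genes of the eIF2 kinases and eIF2 control. Of these, 4 were lower (22.2%, against 26.4% of all genes tested), 8 higher (44.4%, against 24.1%) and 6 not called, with a median log2 fold change of 0.11. The count of higher genes was 5 without control replicate 2. Among the kinases, EIF2AK2, which encodes the double-stranded RNA sensor PKR and is itself an interferon-induced gene, was at 259, 274 and 269 CPM in control samples. In shIRF1 samples it was at 99.95, 99.8 and 98.99 CPM, a log2 fold change of −1.42 ± 0.04 (SE) with an adjusted p of 3.92e-14 in edgeR. EIF2AK3, which encodes the endoplasmic reticulum kinase PERK, rose from 19.6 ± 0.608 to 27.6 ± 1.002 CPM (0.49 ± 0.06 on the log2 scale). EIF2AK4, the amino acid sensor GCN2, rose by 0.23 ± 0.05. EIF2AK1, the heme-regulated kinase, was at 265 ± 5.52 and 263 ± 12.7 CPM and did not pass (adjusted p 0.831). PPP1R15A, known as GADD34, is a target of this branch that recruits the phosphatase for eIF2 alpha, and it fell from 85.8 ± 1.19 to 49.2 ± 1.05 CPM (−0.80 ± 0.04). EIF2S1, which encodes eIF2 alpha, fell by 0.51 on the log2 scale and EIF2S3, the gamma subunit, rose by 0.45. EIF2AK1, EIF2AK4 and EIF2S1 fall outside the rule for named genes and were picked with their values in view.

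**Figure D3:**
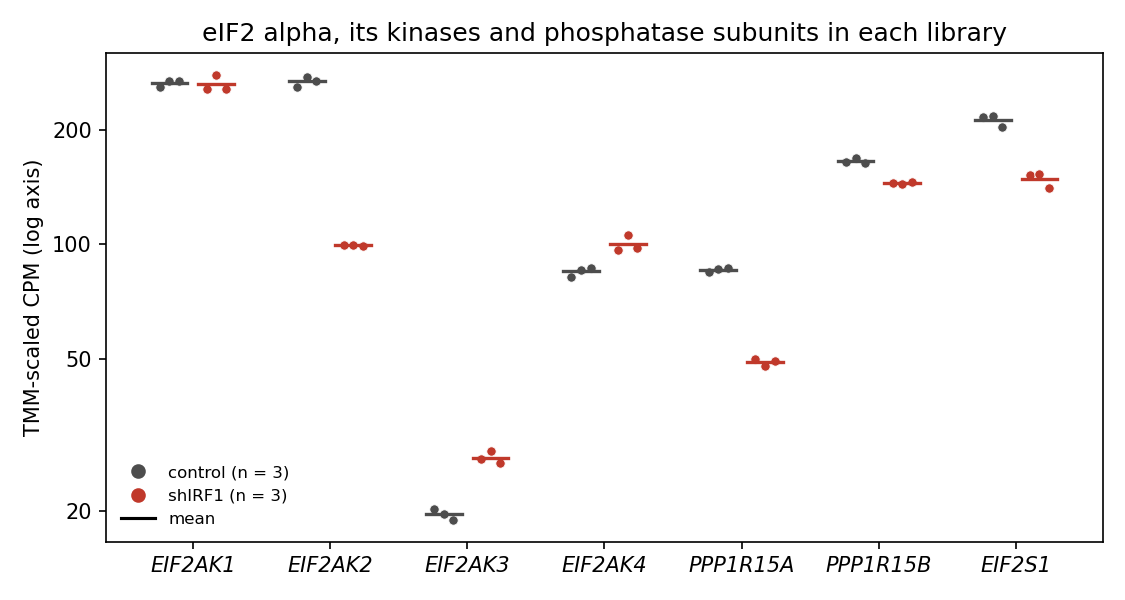
TMM-scaled CPM (log axis) of the eIF2 alpha kinases EIF2AK1 to EIF2AK4, the phosphatase subunits PPP1R15A and PPP1R15B, and EIF2S1 in each control (grey) and shIRF1 (red) sample, with bars at group means. EIF2AK2 drops from 267 to 99.6 CPM and PPP1R15A from 85.8 to 49.2 CPM, while EIF2AK3 rises from 19.6 to 27.6 CPM.

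Of 28 other leucine zipper factors, 27 were tested, and 11 were lower (40.7%, against 26.4% of all genes tested), 5 higher (18.5%, against 24.1%) and 11 not called. The count of higher genes was 8 under library size only and under upper quartile scaling. JDP2, a repressor close to ATF3, fell from 6.42 ± 0.128 to 2.76 ± 0.295 CPM (log2 fold change −1.22 ± 0.10, SE), and FOSL1, an AP-1 subunit, fell from 212 ± 10.9 to 130.0 ± 11.4 CPM (−0.70 ± 0.06). ATF6 and CREB3, membrane-bound factors cut loose by stress in the secretory pathway, rose by 0.56 and 0.45. BATF was at 0 in every library and was not tested. ATF6, ATF6B and XBP1 are counted in this list and in that of the ATF6 and IRE1 branches.

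Downstream of ATF4 and CHOP stand targets that act on cell fate, secretion and autophagy. Of 18 such genes, 17 were tested, and 12 were lower (70.6%, against 26.4% of all genes tested), 3 higher (17.6%, against 24.1%) and 2 not called, with a median log2 fold change of −0.43. TXNIP, an inhibitor of thioredoxin, fell from 156 ± 10.8 to 44.5 ± 1.35 CPM (−1.81 ± 0.05, SE), and GADD45A, a growth arrest gene, from 54.9 ± 1.09 to 21.2 ± 1.35 CPM (−1.37 ± 0.05). INHBE, which encodes an activin subunit, went the other way, from 0.746 ± 0.0174 to 2.46 ± 0.347 CPM (1.72 ± 0.15), and VLDLR, a lipoprotein receptor, rose by 0.41. Of 29 targets of amino acid supply, 13 were lower (44.8%, against 26.4% of all genes tested), 8 higher (27.6%, near the 24.1% of all genes) and 8 not called, with a median of −0.098. PSPH, the last enzyme of serine synthesis, fell by 0.63 on the log2 scale and the tRNA synthetase WARS1, listed as WARS and also induced by interferon, by 0.62. EPRS1, listed as EPRS, rose from 483 ± 7.15 to 769 ± 66.4 CPM (0.67 ± 0.05), and the cystine transporter SLC7A11 rose by 0.62. The ATF4 targets CHAC1 (13.5 ± 1.29 against 13.9 ± 1.12 CPM) and ASNS (1.98 ± 0.165 against 1.73 ± 0.264 CPM) did not pass, with adjusted p-values of 0.664 and 0.334 in edgeR. Both were picked with their values in view.

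Genes listed under the other branches of the unfolded protein response, run by ATF6 and by IRE1 through XBP1, gave counts in the other direction. Of 20 genes on this list, 16 were higher, 0 lower and 4 not called, against 24.1% called higher and 26.4% lower among all genes tested, and the median log2 fold change was 0.25. The count of lower genes was also 0 before adjustment and in DESeq2, and was 1 without control replicate 3. Not all of the sensors and factors that run these branches rose. ATF6 was higher by 0.56 on the log2 scale, while ATF6B (0.030), ERN1, which encodes IRE1 (−0.14), and XBP1 (0.042) were not called. Their adjusted p-values in edgeR were 0.610, 0.141 and 0.418. ATF6B, ERN1 and XBP1 were picked with their values in view. HERPUD1, part of the system that degrades proteins from the endoplasmic reticulum, was at 63.3, 59.0 and 62.0 CPM in control samples and at 121, 121 and 120 CPM in shIRF1 samples (0.97 ± 0.04, SE, adjusted p 5.86e-12 in edgeR). HYOU1, a chaperone, rose from 367 ± 6.96 to 539 ± 9.59 CPM (0.55 ± 0.04). HSPA5, which encodes the chaperone BiP and was picked with its value in view, rose from 1397 ± 28.6 to 2146 ± 120 CPM (0.62 ± 0.05). Counted against HSPA5 in the same library, DDIT3 was at 1.78 to 2.03 per 100 in control samples and at 0.704 to 0.838 per 100 in shIRF1 samples.

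**Figure D4:**
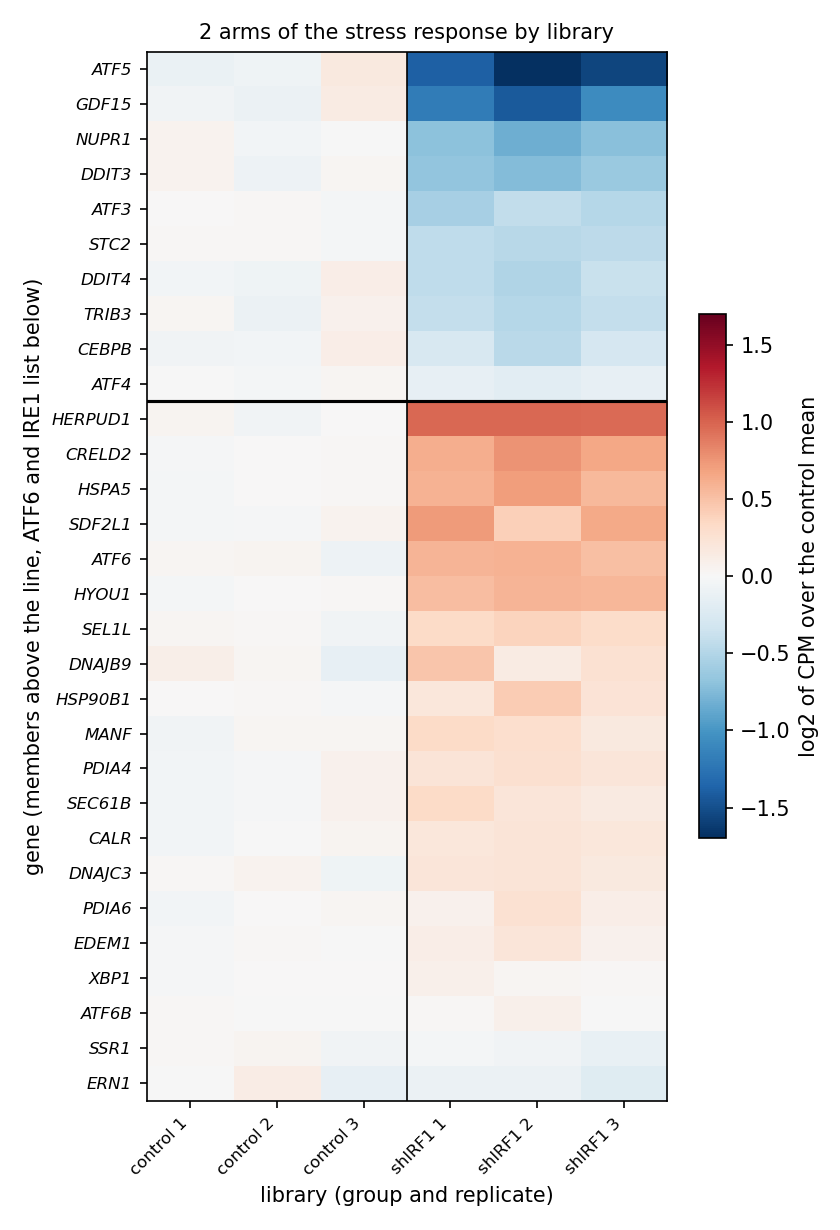
Log2 of CPM over the control mean in each of the 6 libraries, for the 10 genes above the line and the 20 genes of the ATF6 and IRE1 list below it. The upper block is lower in all 3 shIRF1 samples, from ATF4 to ATF5, while most of the lower block is higher, led by HERPUD1.

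Genes that report on mitochondria were examined because doxycycline, given to shIRF1 samples only, acts on the mitochondrial ribosome, and because ATF4 and ATF5 respond to mitochondrial stress. Of 12 mitochondrial chaperones and proteases, 3 were lower (25.0%, near the 26.4% of all genes tested), 5 higher (41.7%, against 24.1%) and 4 not called. HSPD1, the mitochondrial chaperonin, fell by 0.31 on the log2 scale and the protease AFG3L2 by 0.24, while the proteases SPG7 and YME1L1 rose by 0.30 and 0.17. Of 13 mitochondrially encoded genes, 7 were lower (53.8%, against 26.4% of all genes tested) and 0 higher (against 24.1%). In DESeq2, 6 were lower and 0 higher, before adjustment 0 were higher, and under library size only 1 was higher. MT-ATP8 (−0.52 ± 0.09, SE) and MT-ATP6 (−0.21 ± 0.06) had the smallest adjusted p-values. The count of 7 rested on single libraries and was 3 without control replicate 3 and 2 without shIRF1 replicate 3. The part of doxycycline in the levels of the 10 genes was not tested.

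**Figure D5:**
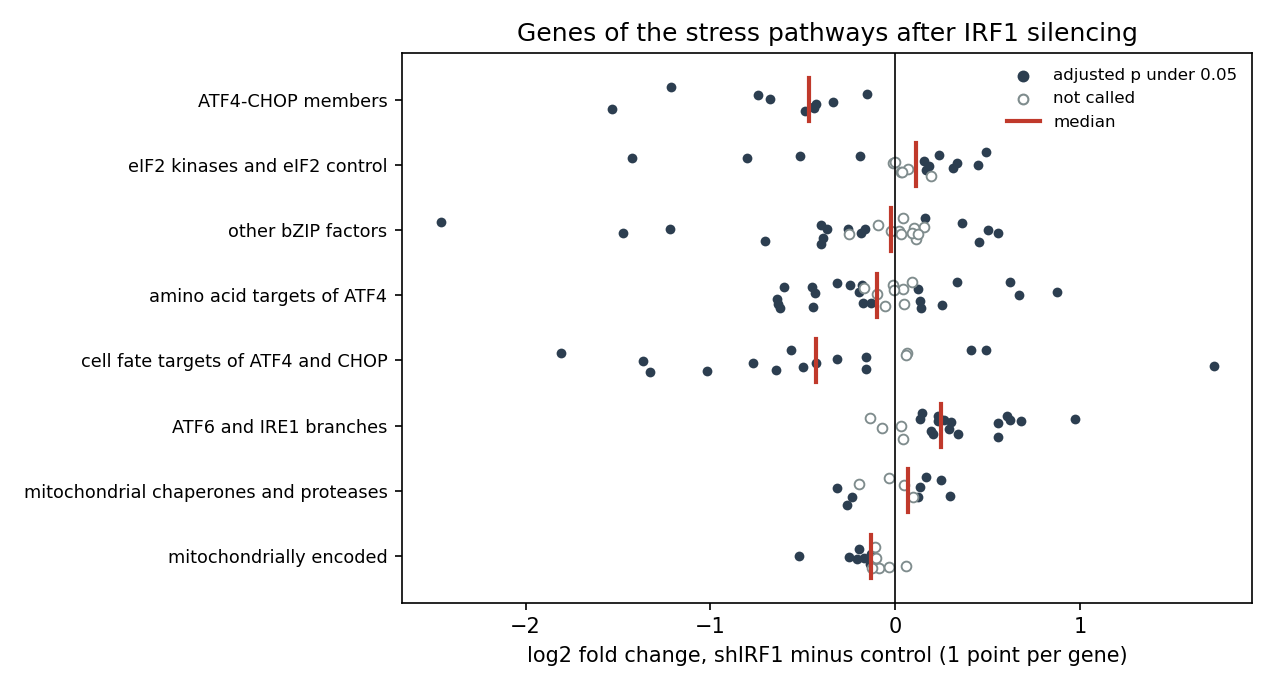
Log2 fold change (shIRF1 minus control) of each tested gene in the 10 ATF4-CHOP genes and in the 7 lists, with filled points at an adjusted p under 0.05 and a red line at each median. The medians run from −0.47 for the 10 genes to 0.25 for the ATF6 and IRE1 list.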

How the data were processed

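RNA-seq libraries (TruSeq Stranded mRNA) from 3 control and 3 shIRF1 samples of BT-549 cells were analysed. The deposited table holds the authors' whole-number counts for each gene symbol, with no normalization. The submitters' processing notes name CASAVA 1.8.2, STAR 2.7.9a, featureCounts and DESeq2 1.24.0 with GRCh38.p7. The strand setting, the annotation release and how read pairs were counted are not given in the sources used here. Among counts of 2 to 11, 72.1% to 75.2% were even, so halved counts were run as an alternative. A total of 3 counts corresponds to 0.0182 to 0.0541 CPM, a floor for counting error only.

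Columns were matched to samples by title. Genes passing filterByExpr (minimum count 10) were tested across the whole table in R 4.3.3 with the quasi-likelihood F-test of edgeR 4.0.16 (TMM scaling, group as factor) and Benjamini-Hochberg adjustment over 18851 genes. DESeq2 1.42.0 was an alternative, beside other scalings and filters, thinning, halved counts, leaving out each replicate and a replicate block. The test was first run on simulated data that had the same dispersion for every gene, unlike real data. It called 98% of the genes given a log2 fold change of 1 in size and 78% of those given 0.5. Of its calls, 5.38% were genes given no change. The SE is the log2 fold change over the root of F. Symbols of 11 tRNA synthetases were found under older names.

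The genes and the lists were chosen with earlier results of these data known. Named genes were the 10 members, IRF1, the 2 of each list with the smallest adjusted p in each direction among those called that averaged 1 CPM or more, and the 3 most correlated with each of the 2 members that changed most (log2 of CPM plus 0.01). Others are marked in the text.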

Additional observations from a re-analysis of the deposited data

How the results depend on the processing

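Each value was recomputed under 15 alternatives. All 210 recomputed values for the 10 genes, their counts and IRF1 had the direction and the call given above. ATF4 ranged from −0.17 to −0.10 in log2 fold change, with its highest adjusted p (0.0421 in edgeR) under library size only, which moved the median of all genes to 0.049. ATF5 ranged from −1.62 to −1.44 and GDF15 from −1.30 to −1.13. The replicate numbers are not said to pair the samples, and the deviations of same-numbered samples correlated at −0.0759, 0.0518 and 0.106. With the replicate block, 10 of 10 genes were lower, and ATF5 was at −1.54 and ATF4 at −0.15. No call among the 10 genes changed.

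All 360 recomputed values of the named list genes also kept their call. Of the counts over lists, 203 stayed within 1.5 times and 7 did not. Other leucine zipper factors called higher were 8 under both library size only and upper quartile scaling, and mitochondrially encoded genes called higher were 1 under library size only. Leaving out a replicate gave 5 to 8 eIF2 genes called higher (5 without control replicate 2), 0 to 1 ATF6 and IRE1 genes called lower (1 without control replicate 3), and 2 to 9 mitochondrially encoded genes called lower. The cause was not tested. Fits that left out a replicate had 2 samples in that group.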
